A study of Mus musculus with 2 samples.

Results

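The microglia and macrophage genes described here are 39 genes of the innate immune cells of the brain and its borders, read in 2 mouse medulloblastomas, tumours of the cerebellum. They were chosen by name: a gene was taken where its symbol stood in the gene column of both deposited tables, which hold 23746 gene records. This found 38 genes, and Spi1 was found under its older symbol Sfpi1 through the RefSeq synonyms. The Brg1KO tumour came from a mouse of the genotype CAG-CreER, Rosa26-SmoM2, Brg1F/F, in which Brg1, the chromatin remodelling ATPase that Smarca4 encodes, can be deleted. The WT tumour came from a CAG-CreER, Rosa26-SmoM2, Brg1+/+ mouse. Both mice thus carried SmoM2, an activated Smoothened that drives Hedgehog signalling, and the tamoxifen-activated Cre CreER, and both received 10 tamoxifen injections. The CAG promoter is active in most cell types, so the construct does not limit recombination to tumour cells, and whether microglia carried the deletion was not measured. Total RNA came from dissected tumour tissue, 1 library per genotype. The labels do not state the ages of the mice.

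Microglia are the resident macrophages of the brain parenchyma and live on signals through the receptor Csf1r. In the undisturbed brain they carry a set of surface receptors, such as P2ry12 and Tmem119, that blood-derived macrophages largely lack. Macrophages of the meninges and vessel walls, called border macrophages, carry the scavenger receptors Mrc1 and Cd163 instead. On activation microglia lower part of the resident set and raise genes of phagocytosis and lysosomes, among them Trem2, Itgax, Lgals3 and Gpnmb.

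The values are FPKM, fragment numbers relative to transcript length and to all mapped fragments, and the depth of the libraries is unknown because the files hold no counts. In the Brg1KO library 12994 records had 1 FPKM or more, and in the WT library 12006. Smarca4, the targeted gene, had 3.76 FPKM in the Brg1KO library and 14.05 FPKM in the WT library. The value covers the whole gene, including exons outside the deleted part. Atoh1, which marks the granule neuron precursors that give rise to Hedgehog-driven medulloblastoma, was present in both libraries, at 10.4 FPKM in Brg1KO and 67.0 FPKM in WT. Xist had 0.369 FPKM in Brg1KO and 268 FPKM in WT, so the mice may differ in sex, which cannot be told apart from the genotype. As each genotype has 1 library, no replicate error and no test can be given, and "higher" and "lower" compare these libraries.

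Most microglia and macrophage genes were higher in the Brg1KO tumour. The difference was expressed as a log2 ratio of Brg1KO over WT after adding 1 FPKM to each value, which understates the change of low genes, and a gene was called at least 2-fold higher at a log2 ratio of 1 or more. By this rule 21 of the 39 genes were higher by at least 2-fold and 0 were lower, against 16.1% higher and 8.67% lower of the 13279 records that reached 1 FPKM in at least 1 library, and 9.01% and 4.85% of all records. The median log2 ratio of the 39 genes was 1.15, against 0.09 over the 13279 records and 0.00 over all records. In bulk tissue, more cells of a type and more RNA per cell cannot be told apart.

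Of the 39 genes, 33 reached 1 FPKM in both libraries. Mrc1, Itgam, Cx3cr1 and Cd163 reached it only in Brg1KO, Itgax only in WT, and Siglech in neither. The log2 ratio was above 0 for 37 of the 39 genes, against 7272 of the 13279 records. The exceptions among the 39 were Irf8 and Itgax. The genes nearest the threshold were Cd53 with a log2 ratio of 1.07 and Itgb2 and Ptprc with 0.95 and 0.94. The FPKM of the 39 genes summed to 1792 in Brg1KO and 984 in WT. This was 0.522% of all FPKM in Brg1KO and 0.254% in WT.

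**Figure D1:**
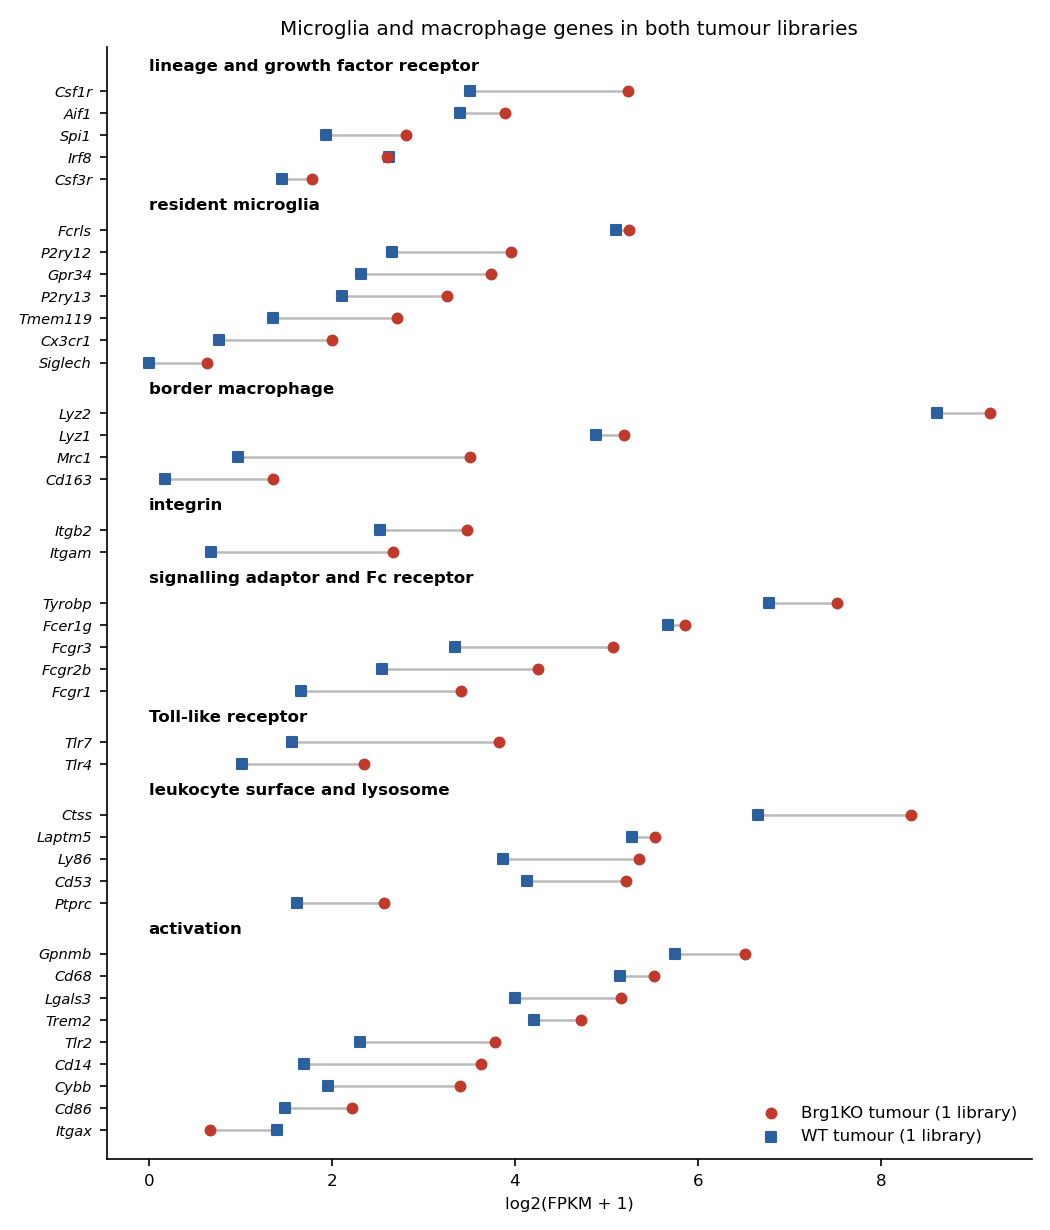
Level of each of the 39 genes as log2(FPKM + 1) on the horizontal axis, grouped by role, with the Brg1KO library as red circles and the WT library as blue squares, 1 library each. The red circle lies to the right for 37 genes, and to the left for Irf8 and Itgax.

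The first group holds growth factor receptor genes and lineage transcription factor genes, together with the marker gene Aif1. Csf1r (chromosome 18, 61105572 to 61131139, mm10), the receptor for the growth factors Csf1 and Il34, had 36.7 FPKM in the Brg1KO tumour and 10.4 FPKM in the WT tumour, a log2 ratio of 1.72. It was the only gene of the 5 past the threshold, against 16.1% of the 13279 records. In GENCODE M21, 15.1% of its exon bases overlap Hmgxb3 on the opposite strand, and the sources used here do not say whether counting used strand. Hmgxb3 itself had 4.64 FPKM in Brg1KO and 5.22 FPKM in WT.

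Spi1 (chromosome 2, 91096797 to 91115756), which encodes PU.1, the transcription factor required for the macrophage lineage, had 6.03 FPKM in Brg1KO and 2.83 FPKM in WT. This was a 2.13-fold difference in FPKM but a log2 ratio of 0.88 after the added 1 FPKM. Irf8, a transcription factor that acts with PU.1 in microglia, had 5.07 FPKM in Brg1KO and 5.19 FPKM in WT, so the genes of these partner factors differed in their ratios. The log2 ratio of Irf8 was -0.03. After rescaling to the same FPKM sum it was 0.12, where the median of expressed records was 0.24. It was 0.09 when midpoints of the bounds replaced FPKM, so Irf8 has no direction here. Aif1, which encodes the actin-binding protein Iba1 used to stain microglia, had 13.8 FPKM in Brg1KO and 9.58 FPKM in WT. Csf3r, the granulocyte colony-stimulating factor receptor gene, had 2.45 FPKM in Brg1KO and 1.75 FPKM in WT. Their log2 ratios, 0.49 and 0.33, lay within the range that the middle 50% of expressed records spanned, -0.41 to 0.68.

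Because PU.1 binds a purine-rich site, the promoters of the members were searched for its letters. RefSeq promoter windows on GRCm38.p6, from 250 bases before to 50 bases after the start of transcription, were held for 29 of the 39 genes. The core GAGGAA, on either strand, stood in the windows of 16 of these genes (55.2%), against 31.3% of all 27025 genes with a window. The longer form GAGGAAGT, which contains the core, stood in 2 of 29 (6.90%, against 3.69%), those of Ctss and Cd53. The ETS-IRF composite element, which PU.1 binds together with Irf factors and which can overlap the core, stood in 3 of 29 (10.3%, against 3.16%), those of Fcgr2b, Cybb and Cd68. TGANTCA, the site of AP-1 factors, stood in 5 of 29 (17.2%, against 8.97%). A match is a run of letters and does not show binding. The windows below belong to the 3 genes with the largest log2 ratios among those with the core in a window, and the capitals mark the core on either strand.
Mrc1: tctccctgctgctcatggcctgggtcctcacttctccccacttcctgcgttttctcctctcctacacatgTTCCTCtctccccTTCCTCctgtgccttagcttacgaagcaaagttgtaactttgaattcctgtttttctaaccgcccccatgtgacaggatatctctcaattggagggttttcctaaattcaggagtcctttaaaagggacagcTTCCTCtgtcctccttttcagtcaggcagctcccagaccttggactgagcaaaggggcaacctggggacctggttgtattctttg
Itgam: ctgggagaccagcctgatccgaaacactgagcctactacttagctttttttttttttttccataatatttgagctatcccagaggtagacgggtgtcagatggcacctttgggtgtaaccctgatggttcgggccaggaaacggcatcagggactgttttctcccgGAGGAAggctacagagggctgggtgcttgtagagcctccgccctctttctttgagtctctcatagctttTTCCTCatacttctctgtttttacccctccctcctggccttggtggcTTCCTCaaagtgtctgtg
Fcgr1: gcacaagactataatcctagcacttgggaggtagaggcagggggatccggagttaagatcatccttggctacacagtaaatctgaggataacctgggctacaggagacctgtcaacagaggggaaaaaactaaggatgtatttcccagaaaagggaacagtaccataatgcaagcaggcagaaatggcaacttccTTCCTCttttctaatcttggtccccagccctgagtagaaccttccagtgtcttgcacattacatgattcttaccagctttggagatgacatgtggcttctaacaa
The Mrc1 window is chr2:14229164-14229463 on the plus strand, and its first 2 cores begin 180 and 167 bases before the start. The Itgam window is chr7:128062390-128062689 on the plus strand, with the first core beginning 84 and the second 15 bases before the start. The Fcgr1 window is chr3:96293920-96294219 on the minus strand, with 1 core beginning 55 bases before the start. Neither Irf8, with a log2 ratio near 0, nor Fcgr2b, with one of 1.70, had GAGGAA in the window, so genes on either side of the threshold lacked the core.

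All 7 genes that mark resident microglia were higher in the Brg1KO tumour, against 7272 of the 13279 expressed records. By at least 2-fold, 5 of the 7 were higher, against 16.1% of expressed records. The median log2 ratio of the 7 genes was 1.23, with a range of 0.14 to 1.42. P2ry12 (chromosome 3, 59216271 to 59262831), the ADP receptor with which microglial processes sense injury, had 14.6 FPKM in Brg1KO and 5.32 FPKM in WT, a log2 ratio of 1.30. Its neighbour P2ry13, a further ADP receptor gene, had 8.61 FPKM in Brg1KO and 3.34 FPKM in WT, a log2 ratio of 1.15. The ratios of these adjacent genes were thus alike. Both lie inside Med12l on its opposite strand, which had 4.65 FPKM in Brg1KO and 5.95 FPKM in WT and so went the other way.

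Gpr34, a receptor for lysophosphatidylserine, had 12.3 FPKM in Brg1KO and 3.997 FPKM in WT, a log2 ratio of 1.42 and the highest of this group. It lies inside Cask on the opposite strand, which had 17.5 FPKM in Brg1KO and 9.90 FPKM in WT. Tmem119, a membrane protein gene much used to tell microglia from blood-derived macrophages, had 5.57 FPKM in Brg1KO and 1.56 FPKM in WT, a log2 ratio of 1.36. Cx3cr1, the receptor for the neuronal chemokine fractalkine, had 3.01 FPKM in Brg1KO and 0.703 FPKM in WT, a log2 ratio of 1.23. These Cx3cr1 values lie below their own deposited bounds, which were 11.7 to 12.99 FPKM in Brg1KO and 4.31 to 5.35 FPKM in WT, and the log2 ratio from the midpoints was 1.19. The level of Cx3cr1 is therefore uncertain by several fold, while its ratio was similar on either reading.

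The remaining resident genes stood apart from these 5 in level or ratio. Fcrls, an Fc receptor-like gene restricted to microglia in mouse brain, was the most abundant of the 7 in both libraries, with 36.9 FPKM in Brg1KO and 33.4 FPKM in WT. Its log2 ratio of 0.14 was the lowest of the group and near the median of all expressed records. Siglech, a sialic-acid-binding lectin gene of microglia and plasmacytoid dendritic cells, had 0.561 FPKM in Brg1KO and was listed at 0 in WT, so no fold is given.

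Border macrophage genes split into a pair with large ratios and a pair with small ones. Mrc1 (chromosome 2, 14229414 to 14332023), the mannose receptor gene whose promoter is printed above, had 10.4 FPKM in the Brg1KO tumour and 0.966 FPKM in the WT tumour. Its log2 ratio of 2.53 was the largest of the 39, and the FPKM differed 10.8-fold. Cd163 (chromosome 6, 124304651 to 124330527), the receptor that takes up haemoglobin bound to haptoglobin, had 1.56 FPKM in Brg1KO and 0.134 FPKM in WT. It differed 11.6-fold in FPKM, from a WT level far under 1 FPKM, and its log2 ratio was 1.18. These 2 genes of border macrophages thus had the largest FPKM ratios among the members with a value above 0 in WT.

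The lysozyme genes were grouped with the border genes but are also expressed by monocytes and activated microglia. Lyz2 (chromosome 10, 117277541 to 117282272) was the most abundant of the 39 genes in both libraries, with 584 FPKM in Brg1KO and 390 FPKM in WT, a log2 ratio of 0.58. Lyz1 (117287795 to 117292868 on the same chromosome), its near-identical neighbour, had 35.6 FPKM in Brg1KO and 28.6 FPKM in WT, a log2 ratio of 0.30. Reads of such a pair can be split between its genes, so the division between Lyz1 and Lyz2 is uncertain. The median log2 ratio of the 4 border genes was 0.88, and it was 1.85 for Mrc1 and Cd163 alone, a choice made after seeing the data.

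A second list of border macrophage genes holds none of the 39. Of 11 genes, 4 were at least 2-fold higher in Brg1KO and 0 lower, against 16.1% and 8.67% of expressed records. The median log2 ratio of these 11 genes was 0.77. Cbr2, a carbonyl reductase gene, had 5.44 FPKM in Brg1KO and 0.557 FPKM in WT. F13a1, which encodes the A subunit of coagulation factor XIII, had 2.75 FPKM in Brg1KO and 0.209 FPKM in WT. Lyve1, a hyaluronan receptor gene also present in lymphatic vessels, had 1.89 FPKM in Brg1KO and 0.152 FPKM in WT. The fourth was Dab2, an endocytic adaptor gene, with 8.29 FPKM in Brg1KO and 3.19 FPKM in WT. The other 7 genes had log2 ratios from -0.11 to 0.88.

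**Figure D2:**
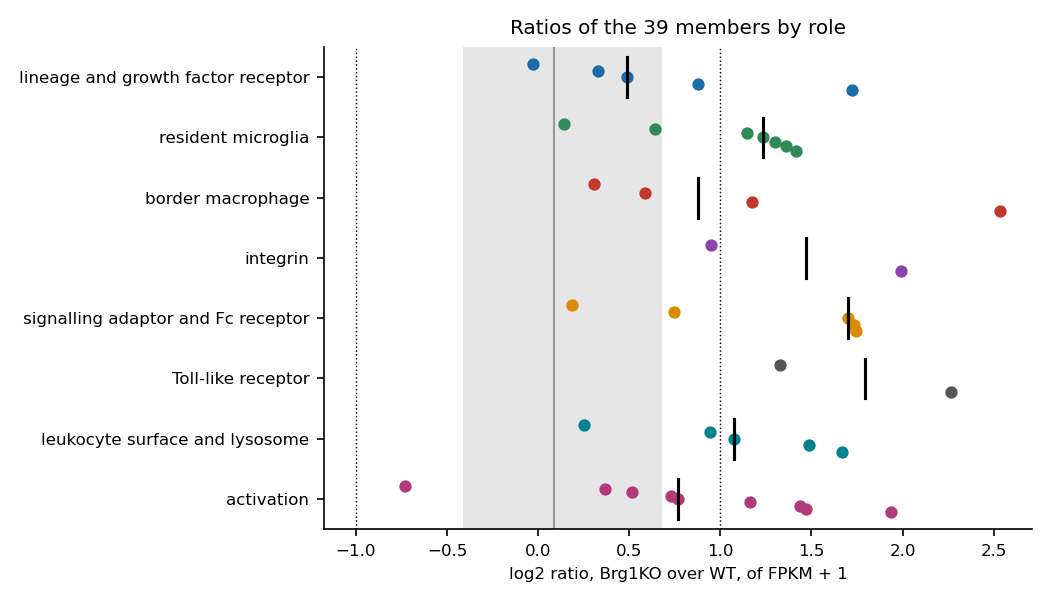
Log2 ratio of Brg1KO over WT (FPKM + 1) for each of the 39 genes by role, with black bars for role medians, a grey line at the median of expressed records (0.09) and grey shading over their middle 50% (-0.41 to 0.68). Dotted lines mark the 2-fold thresholds, and the border macrophage and activation genes spread more widely than the resident microglia genes.

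Integrins and Fc receptors bind complement and antibody on targets of phagocytosis. Itgam and the 3 Fc receptor genes were at least 2-fold higher in Brg1KO, against 16.1% of expressed records. Itgam (chromosome 7, 128062640 to 128118491), the alpha chain CD11b of complement receptor 3, had 5.38 FPKM in Brg1KO and 0.605 FPKM in WT, a log2 ratio of 1.99. Itgb2, the beta chain CD18 that pairs with it, had 10.1 FPKM in Brg1KO and 4.75 FPKM in WT, a log2 ratio of 0.95. In GENCODE M21, 68.7% of the exon bases of Itgam are shared with the gene model Gm49368 on the same strand, so reads of the pair may be split and the level of Itgam is uncertain. The alpha chain had the larger ratio and the beta chain the higher level. Itgax, the alternative alpha chain CD11c, went the other way with 0.597 FPKM in Brg1KO and 1.65 FPKM in WT.

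Among the Fc receptors, Fcgr3 (chromosome 1, 171051169 to 171059403), a low-affinity activating receptor for IgG, had 32.8 FPKM in Brg1KO and 9.16 FPKM in WT. Fcgr2b, the inhibitory receptor, had 18.02 FPKM in Brg1KO and 4.84 FPKM in WT. Fcgr1, the high-affinity receptor, had 9.64 FPKM in Brg1KO and 2.17 FPKM in WT. The log2 ratios were 1.73, 1.70 and 1.75, so activating and inhibitory receptors differed by nearly the same ratio. Fcgr3 and Fcgr2b have similar extracellular sequences, and reads may be shared between them.

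The signalling adaptor genes Fcer1g and Tyrobp differed less than the Fc receptor genes. Fcer1g, the gamma chain of the activating Fc receptors, had 57.3 FPKM in Brg1KO and 50.2 FPKM in WT, a log2 ratio of 0.19. Tyrobp, the adaptor DAP12 of Trem2, had 183 FPKM in Brg1KO and 109 FPKM in WT, a log2 ratio of 0.75. Both were more abundant than any of the Fc receptors in both libraries, and neither reached the threshold. Fcer1g, Tyrobp and Aif1 were the only members whose longest GENCODE transcript has at most 1000 bases. Of these 3 genes 0 passed the threshold, against 16.1% of expressed records. Over all expressed records the median log2 ratio was -0.07 for transcripts of this length and 0.19 for those above 4000 bases. The part of transcript length in the adaptor values was not tested.

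The 3 Toll-like receptor genes among the members, which encode sensors of microbial molecules, were higher in Brg1KO. Tlr7 (chromosome X, 167304931 to 167330528), the receptor for single-stranded RNA, had 13.2 FPKM in Brg1KO and 1.97 FPKM in WT, a log2 ratio of 2.26 and the second largest of the 39. Both values lie above their own deposited bounds, and from the midpoints the log2 ratio of Tlr7 was 1.94, below the 1.99 of Itgam. Tlr4, the lipopolysaccharide receptor, had 4.10 FPKM in Brg1KO and 1.03 FPKM in WT, a log2 ratio of 1.33. Tlr2, a receptor for lipoproteins, had 12.8 FPKM in Brg1KO and 3.97 FPKM in WT, a log2 ratio of 1.47. All 3 receptor genes were thus past the threshold, against 16.1% of expressed records.

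Their cofactors were less uniform. Cd14, a co-receptor of Tlr4 and Tlr2, had 11.4 FPKM in Brg1KO and 2.24 FPKM in WT, a log2 ratio of 1.94. Ly86, which encodes MD-1, the partner of the Toll-like protein Cd180, had 40.0 FPKM in Brg1KO and 13.6 FPKM in WT, a log2 ratio of 1.49. Cd180, Ly96 (the MD-2 partner of Tlr4) and the adaptor gene Myd88, all from the list of ligands and partners and named after their values were seen, had log2 ratios of 0.16, -0.07 and 0.78. Tlr7, Gpr34 and Cybb are X-linked, and all 3 were at least 2-fold higher, as were 15.0% of the 446 expressed X-linked records, whose median log2 ratio was 0.18.

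Of the 5 leukocyte surface and lysosome genes, 3 were at least 2-fold higher, Ctss, Cd53 and Ly86, against 16.1% of expressed records. Ctss (chromosome 3, 95526786 to 95556403), the lysosomal protease cathepsin S, had 321 FPKM in Brg1KO and 100.1 FPKM in WT, a log2 ratio of 1.67. Cd53, a leukocyte tetraspanin gene, had 36.1 FPKM in Brg1KO and 16.6 FPKM in WT, a log2 ratio of 1.07 that was 0.88 from the midpoints of the bounds. Ptprc, which encodes the pan-leukocyte phosphatase CD45, had 4.94 FPKM in Brg1KO and 2.09 FPKM in WT. Its FPKM differed 2.37-fold, but its log2 ratio of 0.94 was short of the threshold. Laptm5, a lysosomal membrane protein gene of haematopoietic cells, had 45.3 FPKM in Brg1KO and 38.0 FPKM in WT, a log2 ratio of 0.25.

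The activation genes had the lowest median of the 3 states that the list holds. Of 9 genes 4 were at least 2-fold higher in Brg1KO, against 16.1% of expressed records. The median log2 ratio of the 9 genes was 0.77, with a range of -0.73 to 1.94. The 4 were Cd14 and Tlr2, described above, and Cybb and Lgals3. Cybb, the catalytic subunit of the phagocyte NADPH oxidase, had 9.54 FPKM in Brg1KO and 2.89 FPKM in WT, a log2 ratio of 1.44. Lgals3, which encodes galectin-3 and is not limited to macrophages, had 34.8 FPKM in Brg1KO and 15.0 FPKM in WT, a log2 ratio of 1.16.

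The activation genes Trem2, Gpnmb, Cd68 and Cd86 had smaller ratios. Trem2 (chromosome 17, 48346401 to 48352273), the lipid receptor that signals through Tyrobp, had 25.5 FPKM in Brg1KO and 17.5 FPKM in WT, a log2 ratio of 0.52. Gpnmb, a glycoprotein gene of lipid-laden macrophages that other cells also express, had 90.4 FPKM in Brg1KO and 52.7 FPKM in WT, a log2 ratio of 0.77. Cd68, a lysosomal glycoprotein gene used to stain phagocytes, had 44.8 FPKM in Brg1KO and 34.6 FPKM in WT, a log2 ratio of 0.37. These 3 genes were therefore abundant in both tumours. Cd86, a co-stimulatory ligand gene for T cells, had 3.66 FPKM in Brg1KO and 1.81 FPKM in WT, a log2 ratio of 0.73.

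Itgax was the only member with a ratio below 0 under every scaling tried. Its log2 ratio was -0.73 as deposited and lay between -0.64 and -1.33 over the 5 scalings, with the lowest value when 0.1 FPKM was added in place of 1. At 0.1 FPKM it was past 2-fold lower. Both of its values are low, and the deposited bounds, 0.461 to 0.735 FPKM in Brg1KO and 1.397 to 1.92 FPKM in WT, did not overlap. Cst7, a cystatin gene of the same microglial activation state, named after its values were seen, had 10.3 FPKM in Brg1KO and 20.9 FPKM in WT. Its log2 ratio was -0.96, and -0.61 from the midpoints of the bounds. It belongs to the further activation list below, in which 12 of 15 genes had a log2 ratio above 0 and 3 below. Of the 13279 expressed records 7272 were above 0 and 6007 below.

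Of 15 genes in the further activation list, 4 were at least 2-fold higher and 0 lower, against 16.1% and 8.67% of expressed records. The median log2 ratio of these 15 genes was 0.48. Apoe, the lipid carrier gene, had 2572 FPKM in Brg1KO and 878 FPKM in WT, and astrocytes express it as well. Spp1, which encodes osteopontin, had 120 FPKM in Brg1KO and 38.2 FPKM in WT. The others were Axl, a receptor for apoptotic cells, and Arg1, the arginase gene of alternatively activated macrophages. Axl had 13.9 FPKM in Brg1KO and 4.90 FPKM in WT, and Arg1 had 1.47 FPKM in Brg1KO and 0.123 FPKM in WT.

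In the further list of 12 resident microglia genes, 2 were at least 2-fold higher and 1 was at least 2-fold lower. These shares were near the 16.1% higher and 8.67% lower of expressed records. The median log2 ratio of this list was 0.62. Cd33, a sialic-acid-binding receptor gene, had 5.996 FPKM in Brg1KO and 1.16 FPKM in WT. Ltc4s, the leukotriene C4 synthase gene, had 11.3 FPKM in Brg1KO and 3.12 FPKM in WT. The lower gene was Sall1, with 3.22 FPKM in Brg1KO and 8.98 FPKM in WT, a log2 ratio of -1.24. Sall1 is a transcription factor gene of microglia that neural progenitors also express.

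The order of the levels was much the same in both tumours. Lyz2, Ctss, Tyrobp, Gpnmb and Fcer1g were the 5 most abundant of the 39 in Brg1KO. The same 5 led in WT, where Tyrobp stood before Ctss by FPKM but after it by the midpoints of the bounds, which were 73.8 FPKM for Tyrobp and 125 FPKM for Ctss. Spearman's rho between the levels in Brg1KO and WT was 0.92 over the 39 genes, a description across genes of 1 library each. Relative to Csf1r, taken as 1, Lyz2 stood at 15.9 in Brg1KO and 37.3 in WT. Fcrls stood at 1.005 in Brg1KO and 3.20 in WT. Mrc1 by the same measure stood at 0.283 in Brg1KO and 0.0925 in WT. The genes thus did not keep one ratio to Csf1r.

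**Figure D3:**
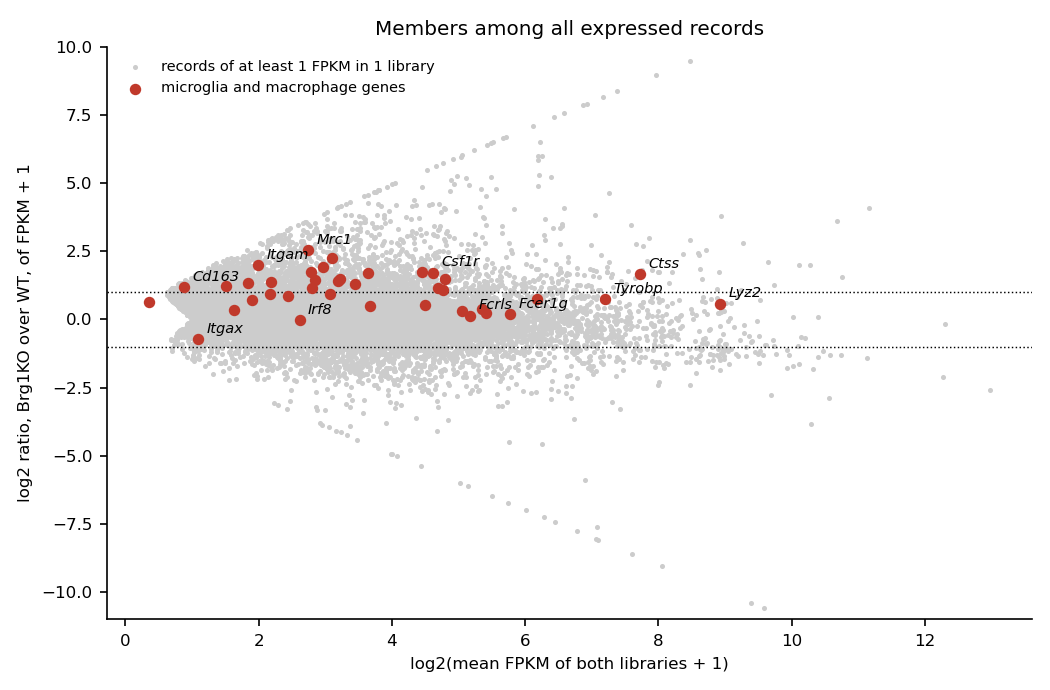
Log2 ratio of Brg1KO over WT (FPKM + 1) against log2 of the mean FPKM of both libraries plus 1, with the 13279 expressed records in grey and the 39 genes in red. Dotted lines mark 2-fold, and 21 red points lie on or above the upper line and 0 below the lower one.

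Of 17 ligands and partners of the members 3 were higher by at least 2-fold and 0 were lower, a share near the 16.1% of expressed records, and the median log2 ratio was 0.59. Cd47, the ligand by which cells hold off phagocytosis through Sirpa, had 35.2 FPKM in Brg1KO and 7.83 FPKM in WT, a log2 ratio of 2.04. Cx3cl1, the neuronal ligand of Cx3cr1, had 5.77 FPKM in Brg1KO and 2.29 FPKM in WT, a log2 ratio of 1.04. Csf2rb, the shared beta chain of the GM-CSF receptor, had 3.39 FPKM in Brg1KO and 1.12 FPKM in WT, a log2 ratio of 1.05. The Csf1r ligands Csf1 and Il34, named after their values were seen, were just short of the threshold. Csf1 had 6.50 FPKM in Brg1KO and 2.77 FPKM in WT, and Il34 had 4.22 FPKM in Brg1KO and 1.76 FPKM in WT.

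Markers of other leukocytes moved in the same direction in part. Their counts stand against 16.1% of expressed records that were at least 2-fold higher. Of 6 monocyte genes 2 were at least 2-fold higher, Chil3 (listed as Chi3l3) with 16.9 FPKM in Brg1KO and 2.02 FPKM in WT and Ly6c2 with 2.48 FPKM in Brg1KO and 0.640 FPKM in WT. The monocyte list summed to 36.9 FPKM in Brg1KO and 15.9 FPKM in WT. Of 8 neutrophil genes S100a8, S100a9 and Retnlg were at least 2-fold higher, and the list summed to 151 FPKM in Brg1KO and 29.0 FPKM in WT. S100a8 had 119 FPKM in Brg1KO and 21.8 FPKM in WT. S100a9 had 21.95 FPKM in Brg1KO and 4.49 FPKM in WT, and Retnlg had 8.12 FPKM in Brg1KO and 1.48 FPKM in WT. The granule genes of the list, named after their values were seen, were low in both libraries. Camp had 1.47 FPKM in Brg1KO and 1.04 FPKM in WT, Mpo had 0.0557 FPKM in Brg1KO and 0.201 FPKM in WT, and Elane was at 0 in both. The part of monocytes and neutrophils in the values of shared genes such as Itgam, Cd14, Csf3r and Lyz2 was not tested.

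Lymphoid markers were low in both tumours. The counts for the lymphoid, dendritic and mast cell lists stand against 16.1% of expressed records at least 2-fold higher and 8.67% lower. Of the 9 T and NK cell genes 8 were found and 0 of them passed the threshold, and they summed to 3.26 FPKM in Brg1KO and 1.91 FPKM in WT. The most abundant were Cd4, with 1.78 FPKM in Brg1KO and 1.43 FPKM in WT, and Nkg7, with 0.666 FPKM in Brg1KO and 0.252 FPKM in WT. Klrb1c, named after its values were seen, was at 0 in both libraries. The 5 B cell genes summed to 0.683 FPKM in Brg1KO and 1.30 FPKM in WT, with 0 past the threshold. Cd79a had 0.359 FPKM in Brg1KO and 1.08 FPKM in WT, and Cd79b had 0.269 FPKM in Brg1KO and 0.197 FPKM in WT. Of 6 dendritic cell genes Zbtb46 and Flt3 were at least 2-fold higher, with Zbtb46, which endothelial cells also express, at 7.58 FPKM in Brg1KO and 0.519 FPKM in WT. Flt3, a growth factor receptor gene, had 3.06 FPKM in Brg1KO and 0.0637 FPKM in WT. Clec9a, Xcr1 and Cd209a, which define dendritic cell subsets and were named after their values were seen, had at most 0.129 FPKM in either library. Of 4 mast cell genes only Kit, which cerebellar interneurons also express, was at least 2-fold higher, and Mcpt4, also named after its values were seen, was at 0 in both libraries.

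Erythroid, vessel and meningeal genes were read in the same way, against the 16.1% of expressed records that were at least 2-fold higher. Of 8 erythroid genes 7 were found, of which the globin genes Hbb-bs (listed as Beta-s), Hbb-b2 and Hba-a2 and the haem synthesis gene Alas2 were at least 2-fold higher, with the list summing to 165 FPKM in Brg1KO and 21.5 FPKM in WT and a median log2 ratio of 1.56. Of 6 endothelial genes 1, Pecam1, was at least 2-fold higher, a share near that of expressed records, and the list summed to 25.1 FPKM in Brg1KO and 15.2 FPKM in WT. Of 7 genes of pericytes, fibroblasts and meninges Vtn, Dcn and Col1a2 were at least 2-fold higher, with the list summing to 133 FPKM in Brg1KO and 40.1 FPKM in WT. The part of blood or meninges in the border macrophage values was not tested.

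Genes of mature neurons and of glia other than microglia had larger ratios than the microglia and macrophage genes. The median log2 ratio was 5.64 for 4 Purkinje cell genes, 4.26 for 4 granule neuron genes, 3.17 for 6 oligodendrocyte genes and 2.35 for 6 astrocyte genes. It was -2.58 for 5 genes of granule neuron precursors and dividing cells and 0.06 for 3 choroid plexus genes. The part of the mix of cell types in the members' values was not tested.

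**Figure D4:**
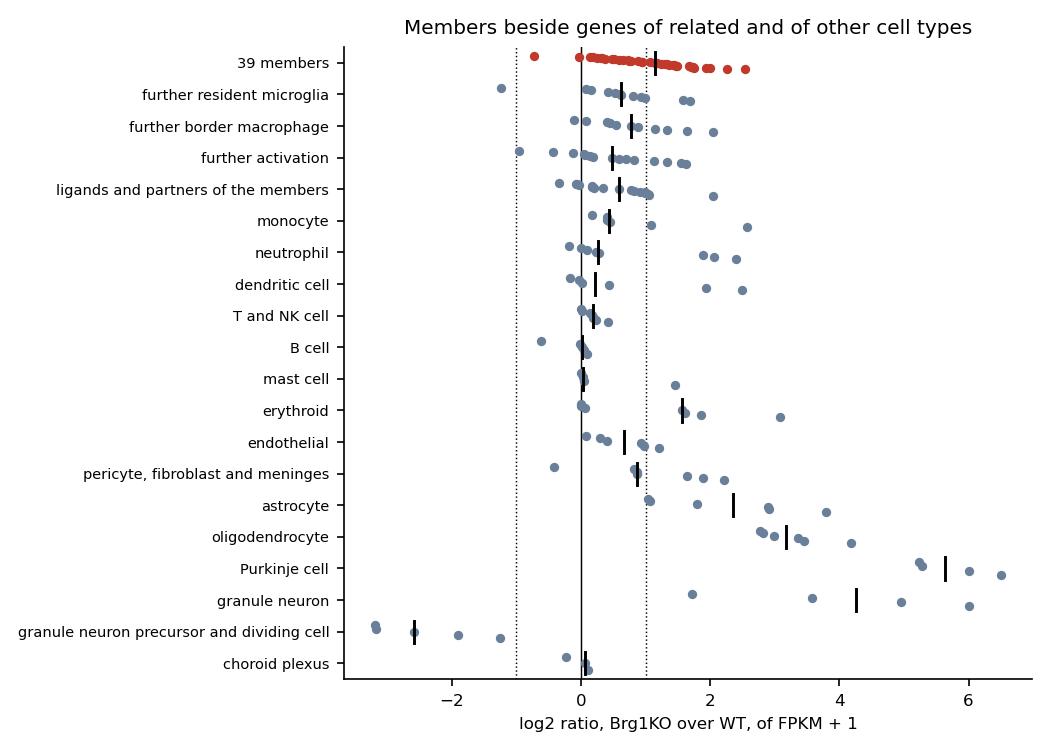
Log2 ratio of Brg1KO over WT (FPKM + 1) for the 39 genes, in red, and for each gene of the related and other cell type lists, in blue-grey, with black bars for list medians and dotted lines at 2-fold. The median of the 39 genes, 1.15, lies below those of the erythroid, astrocyte, oligodendrocyte, granule neuron and Purkinje cell lists and above those of the lymphoid lists.

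The deposited bounds give a further description of the same values. The lower bound in Brg1KO lay above the upper bound in WT for 37 of the 39 genes, against 41.6% of expressed records. The opposite held for Itgax alone, against 36.1% of expressed records, and the bounds of Irf8 overlapped. How the bounds were made is not given, they hold no variation between animals, and the FPKM lay outside its own bounds for 23 of the 39 genes in Brg1KO and 18 in WT. Among expressed records this was so for 51.2% in Brg1KO and 49.0% in WT.

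Over the 5 scalings, 20 of the 39 genes were at least 2-fold higher under each, 5 under some and 14 under none. The 5 were Cd53, Itgb2, Ptprc, Spi1 and Siglech. Rescaling to the same FPKM sum moved the median of expressed records by 0.15, to 0.24. The members' rescaled ratios are to be read against that median of 0.24. The median of the resident microglia genes, 1.23, was above that of the border genes, 0.88, but with 0.1 FPKM added the order turned, with 1.60 for the resident and 1.71 for the border genes. The ranges of the resident, border and activation genes overlapped, and no difference between these groups was tested.

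**Figure D5:**
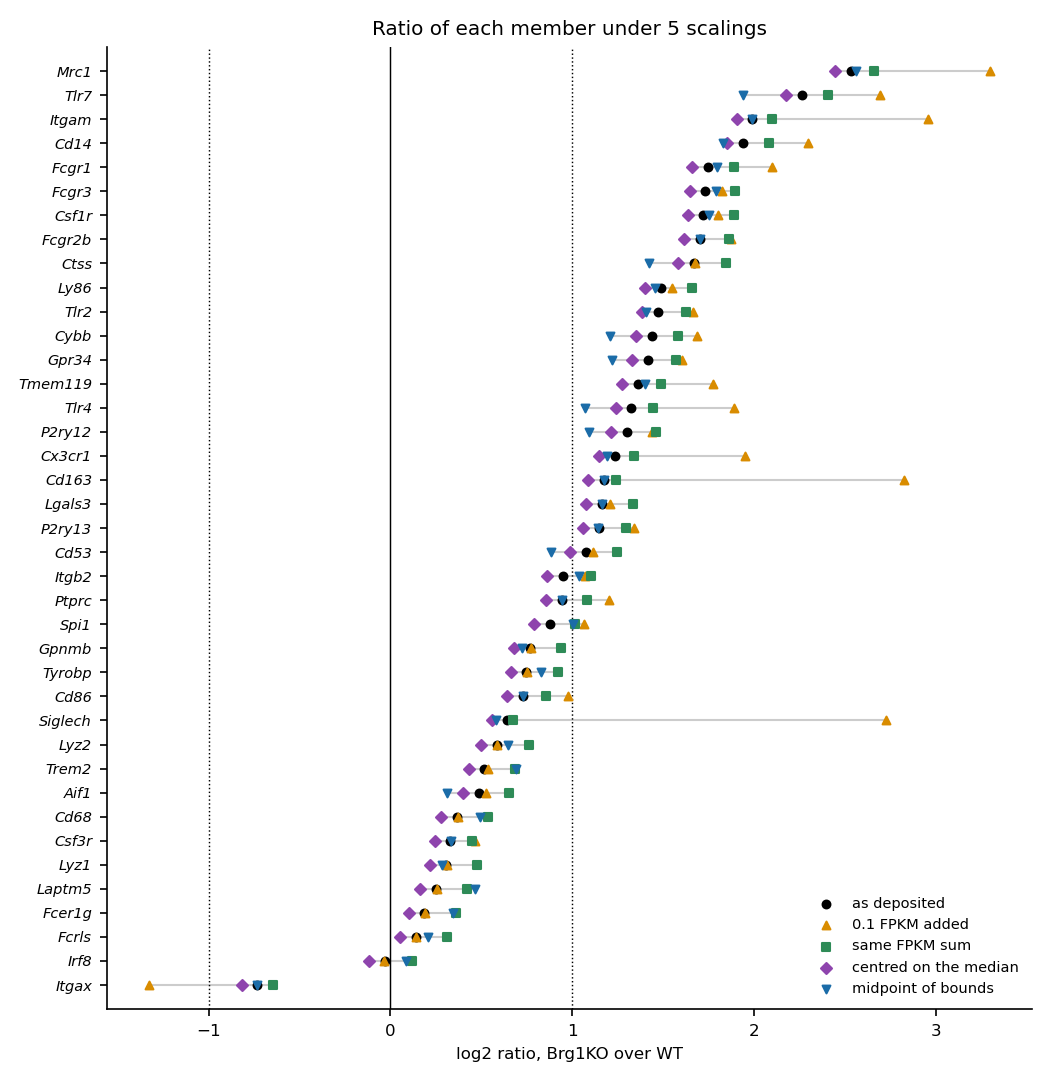
Log2 ratio of Brg1KO over WT for each of the 39 genes under 5 scalings (deposited FPKM plus 1, 0.1 FPKM added, same FPKM sum, centring on the median of expressed records, midpoint of the deposited bounds), sorted by the first. Dotted lines mark 2-fold, and Cd163 and Siglech, both low in WT, move most when 0.1 FPKM is added.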

How the data were processed

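RNA sequencing covered 1 Brg1KO and 1 WT medulloblastoma, 1 library each. Per the file headers, the authors deposited FPKM, its bounds and its status for each gene. Cuffdiff 2.1.1 and the build mm10 stand in the submitters' processing notes with no role. Not given in the sources used here were the aligner, the annotation and how the bounds were made. Without counts, depth is unknown. Groups were taken from the genotype labels. The members and gene lists were chosen with earlier results of these data known. From the FPKM, log2((Brg1KO + 1)/(WT + 1)) was computed for all 23746 records, and log2 ratios of at least 1 or at most -1 were counted. All 39 members are named; of each further list up to 4 genes of largest ratio past the threshold are named, or the 2 most abundant, and any other gene is said to be named after its values were seen. Start positions were converted to count from 1. Promoters are RefSeq windows on GRCm38.p6, and overlaps are from GENCODE M21. The calculation was tested on simulated data. Alternatives were another pseudocount, same-sum scaling, centring, bound midpoints, status, a filter and a 1.5-fold threshold. The tools were pandas 2.3.3, numpy 2.4.6, matplotlib 3.10.9 and Python 3.11.15.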

Additional observations from a re-analysis of the deposited data

How the results depend on the processing

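The count of genes at least 2-fold higher, 21 of 39, lay between 20 and 25 under the alternatives that kept this threshold, and 28 genes were at least 1.5-fold higher. The count at least 2-fold lower was 0, and it was 1 with 0.1 FPKM added and 1 at a threshold of 1.5-fold, Itgax each time. The median log2 ratios of the 39 genes, the resident, the border and the activation genes were 1.34, 1.60, 1.71 and 0.98 with 0.1 FPKM added. They were 1.25, 1.34, 1.001 and 0.94 after rescaling to the same FPKM sum, and 1.06, 1.15, 0.79 and 0.68 after centring on the median of expressed records. From the midpoints of the deposited bounds they were 1.07, 1.14, 0.91 and 0.73. With members of at least 1 FPKM in 1 library only, which leaves out Siglech, the first was 1.15 and the resident median 1.27. Leaving out the lysozyme genes, chosen after seeing the data, gave a border median of 1.85. All members had the status OK in both libraries. No paired analysis was possible because each genotype has 1 library, and for the same reason no library could be left out. With no counts, the precision of low values such as those of Cd163, Siglech and Itgax is unknown.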
